A study of Homo sapiens with 24 samples.

Results

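The genes described here are 47 genes of autophagy and mitophagy, taken by gene symbol from a list that runs from the kinases that start an autophagosome to the receptors that select mitochondria for it. All 47 were measured, among 18239 genes tested. They have 157 probe sets in all. For the 39 members with more than 1, the brightest (highest mean over all arrays) stood for the gene, and 8 members have 1. The members fall into 8 roles: the ULK initiation complex (5 genes), the PI3-kinase nucleation complex (6), membrane supply and effectors of its lipid product (6), the conjugation machinery (10), the ATG8 proteins (5), cargo receptors (6), mitophagy receptors with PINK1 (6), and transcription factors with a fusion SNARE (3).

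RNA came from HCT116, an established human colon cancer line, and was read on 24 Affymetrix expression arrays, 3 for each of 8 groups. ESR2 cells carry full-length ESR2, the gene of estrogen receptor beta, fused to an N-terminal HaloTag and delivered by a lentivirus that also encodes GFP and puromycin resistance. They were selected with puromycin and are a transduced pool in which, per the labels, most but not all cells expressed GFP. Parental cells are labelled wild type. The groups were hypoxic ESR2 cells, hypoxic parental cells, normoxic ESR2 cells and normoxic parental cells, each with 10 nM 17β-estradiol and without it. For hypoxia the culture chamber was flushed with a mixture of nitrogen and CO2. Cells given the hormone were in medium without phenol red and with charcoal-treated serum. The sources used here do not give the medium of the untreated cells, the length of hypoxia or a vector control, so in each comparison with estradiol the hormone and its medium cannot be told apart, nor ESR2 and the vector in each comparison of cells. The labels do not say that the 3 arrays of a group are separate cultures, so p-values cover no more than the spread of these samples, possibly a technical one, and the small number of arrays limits the precision.

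Macroautophagy encloses cytoplasm in a double membrane that then fuses with the lysosome. The ULK complex starts it, a class III PI3-kinase marks the membrane with PI3P, and a ubiquitin-like conjugation system attaches the ATG8 proteins (LC3 and GABARAP) to its lipids. Cargo receptors bind ATG8 proteins and ubiquitin, and mitophagy receptors sit on mitochondria, where BNIP3 and BNIP3L are known as targets of the hypoxia-inducible factor HIF-1.

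The values are log2 signals of RNA made by RMA and do not measure proteins or autophagy itself. A gene was called higher or lower at a limma adjusted p under 0.05. ESR2 itself had 4.89, 4.03 and 4.63 in normoxic ESR2 cells, against 3.35, 3.54 and 3.52 in normoxic parental cells. Without overlap in hypoxia either, it had 4.08, 3.96 and 4.17 in hypoxic ESR2 cells, against 3.46, 3.31 and 3.53 in hypoxic parental cells. The arrays' summed level of 10 colon epithelial markers (their mean log2 signal) lay between 6.68 and 7.33. That of 7 fibroblast markers lay between 3.07 and 3.28, and that of 6 leukocyte markers between 3.34 and 3.85, against array medians of 4.07 to 4.13. The colon markers were uneven. VIL1, LGALS4 and CDH17 lay below the array medians on all arrays and CDX1 near or below them, while EPCAM, CDH1, KRT8, KRT18, KRT19 and CDX2 lay above. Hypoxic ESR2 cells with estradiol stand apart: the excess of 3′ over 5′ signal in control transcripts, an index of how complete the labelled RNA is, averaged 3.74 ± 0.30 there and 2.10 ± 0.10 in hypoxic ESR2 cells without estradiol (SD, n = 3 each). That group also had the highest leukocyte and fibroblast marker levels, 3.79 to 3.85 and 3.20 to 3.28. Among its leukocyte markers CD68, which also marks lysosomes, read 7.14, 7.15 and 7.40, against 5.69, 5.26 and 5.70 in hypoxic ESR2 cells without estradiol, while CD3E, MS4A1 and CD14 lay below the array medians on its arrays. In the normoxic parental group without estradiol, array 2 had an index of 4.34, against 2.00 to 3.10 on the other 20 arrays. The part of these array differences in the members' results was not tested. For 9 members (ATG4B, ATG4D, ATG10, ATG12, GABARAPL1, NBR1, OPTN, PHB2 and STX17) the brightest probe set is of the x_at kind, whose probes may also bind related transcripts.

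The largest hypoxia rises of the list, in both cells, were those of BNIP3L and BNIP3, receptors that mark mitochondria for removal. BNIP3L rose 3.49-fold in ESR2 cells and 7.92-fold in parental cells, BNIP3 3.08-fold and 4.13-fold, and PINK1 1.97-fold and 2.18-fold. The rest of the list split. Of the 47 members, 22 were called in ESR2 cells, against 32.6% of all genes. 15 of them were higher (14.4% of all genes) and 7 lower (18.2%), and the members' median log2 change was 0.07, against -0.06 over all genes. In parental cells 27 were called, against 37.5% of all genes. 15 were higher (16.4%) and 12 lower (21.2%), with a median of 0.01 for members and of 0.00 for all genes. Without replicate 1 of hypoxic ESR2 cells the ESR2 count was 14.

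**Figure D1:**
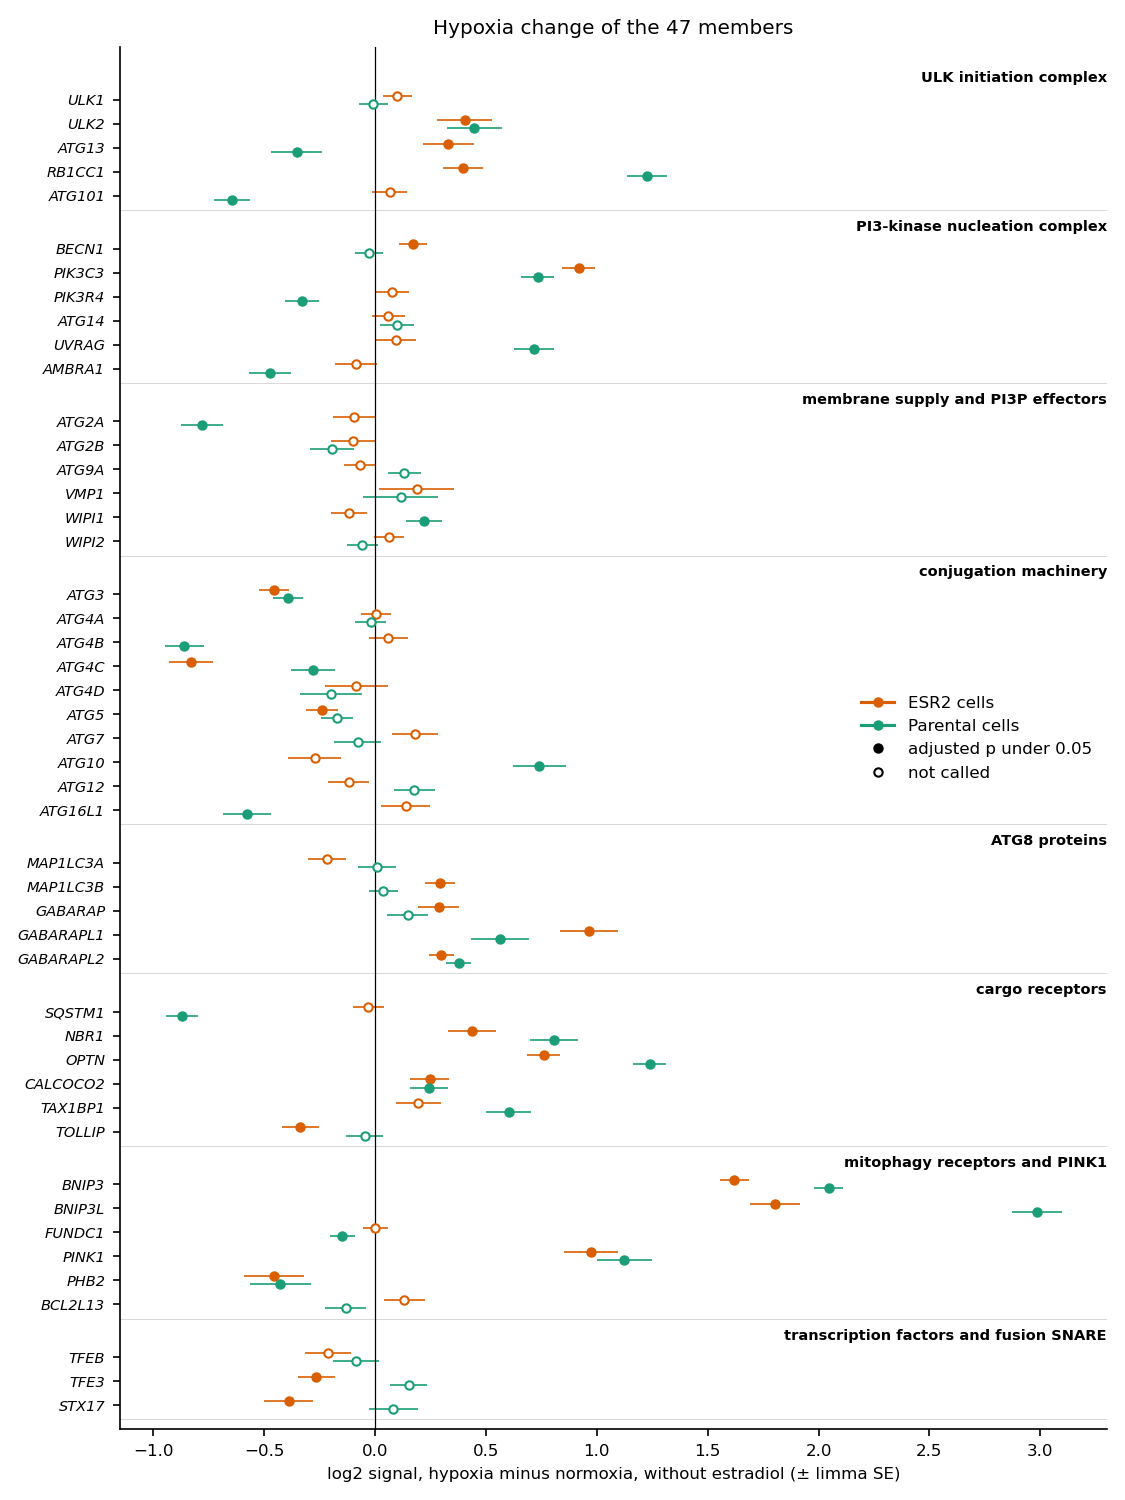
Hypoxia change of each of the 47 members in ESR2 cells (orange) and parental cells (green), without estradiol, by role. The axis gives the log2 signal in hypoxia minus that in normoxia, bars are limma's SE, and filled points have an adjusted p under 0.05. BNIP3L, BNIP3, OPTN and PINK1 stand to the right in both cells, while SQSTM1, ATG4B, ATG2A, ATG101 and ATG16L1 stand left of 0 in parental cells and near 0 in ESR2 cells.

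BNIP3 encodes a receptor in the outer mitochondrial membrane that binds ATG8 proteins directly. It had 11.21, 11.22 and 11.22 in hypoxic ESR2 cells, against 9.61, 9.61 and 9.57 in normoxic ESR2 cells. In parental cells the values were 11.66, 11.62 and 11.66 in hypoxic parental cells, against 9.47, 9.67 and 9.66 in normoxic parental cells. All hypoxic arrays lay above all normoxic ones in both cells. The rise was 1.62 ± 0.06 on the log2 scale in ESR2 cells and 2.04 ± 0.06 in parental cells (limma SE, adjusted p = 1.26e-14 and 6.05e-17). A dimmer probe set of BNIP3, with a mean of 3.94, changed by -0.19 in ESR2 cells and by 0.17 in parental cells, and with the mean of both the rises were 0.72 and 1.11, still called.

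BNIP3L (NIX), its close relative, is best known for clearing mitochondria from maturing red cells. It had 10.46, 10.30 and 10.21 in hypoxic ESR2 cells, against 8.72, 8.49 and 8.35 in normoxic ESR2 cells. Its parental values were 10.68, 10.80 and 10.75 in hypoxic parental cells, against 7.95, 7.37 and 7.95 in normoxic parental cells. The groups were widely separated, and the rise was 1.81 ± 0.11 in ESR2 cells (limma adjusted p = 3e-11) and 2.98 ± 0.11 in parental cells (9.89e-16). All 6 of its probe sets were called higher in both, by 1.81 to 2.40 in ESR2 cells and by 2.93 to 3.32 in parental cells.

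The promoter of BNIP3 is shown because its gene had the second largest rise in both cells and its window holds several copies of the core of the HIF site. ATG3, the E2-like enzyme that passes ATG8 proteins to lipid, is set beside it. It holds as many stretches of core by the count below and fell in hypoxia. OPTN, an autophagy receptor, is shown because it rose and holds none. The windows run from 250 bases before to 50 after the RefSeq gene start, in GRCh38.p14, in the direction of the gene. Capitals mark the cores, ACGTG or GCGTG on either strand (CACGT or CACGC where the core is on the other strand), and CACGTG, an E-box, is a core on both strands at once.
BNIP3, chr10:131981874-131982173, minus strand: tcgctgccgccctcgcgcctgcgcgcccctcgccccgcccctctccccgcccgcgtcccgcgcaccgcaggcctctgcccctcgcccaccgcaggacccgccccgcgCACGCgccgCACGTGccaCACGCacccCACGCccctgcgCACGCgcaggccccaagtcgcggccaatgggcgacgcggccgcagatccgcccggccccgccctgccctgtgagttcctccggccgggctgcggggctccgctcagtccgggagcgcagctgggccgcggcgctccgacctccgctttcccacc
ATG3, chr3:112561913-112562212, minus strand: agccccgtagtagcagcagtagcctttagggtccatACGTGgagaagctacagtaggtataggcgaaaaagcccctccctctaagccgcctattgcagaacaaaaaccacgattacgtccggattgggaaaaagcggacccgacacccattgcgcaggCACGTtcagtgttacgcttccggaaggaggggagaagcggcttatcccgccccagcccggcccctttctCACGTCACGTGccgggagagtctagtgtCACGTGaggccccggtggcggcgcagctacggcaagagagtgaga
OPTN, chr10:13099832-13100131, plus strand: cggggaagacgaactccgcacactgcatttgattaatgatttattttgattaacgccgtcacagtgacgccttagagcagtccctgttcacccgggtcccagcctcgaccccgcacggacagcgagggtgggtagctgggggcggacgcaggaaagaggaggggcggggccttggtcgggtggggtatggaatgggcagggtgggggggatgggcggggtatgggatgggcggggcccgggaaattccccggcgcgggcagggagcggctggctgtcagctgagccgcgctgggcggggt
BNIP3 has 5 separate stretches, which begin at -143, -134, -125, -116 and -104 relative to the gene start, and 1 holds an E-box. ATG3 also has 5 by the same count, which joins only cores that overlap. They begin at -214, -92, -23, -18 and 6, and 2 hold E-boxes. Those at -23 and -18 abut without a gap and show as a single run of capitals. Of all 35116 windows, 48.4% hold at least 1 stretch, 0.994% hold 5 or more, and 7.26% hold an E-box. Of the members, 40 were matched to 54 windows, and 33 of these (61.1%), in 28 members, hold a core. Both windows of OPTN and all 3 of SQSTM1 hold none, which says only that these letters are not there. No window was found for RB1CC1, UVRAG, ATG4D, MAP1LC3A, BNIP3L, PINK1 and STX17.

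PINK1, the kinase that gathers on damaged mitochondria and recruits the ubiquitin ligase parkin, had 8.001, 7.81 and 7.65 in hypoxic ESR2 cells, against 6.63, 6.98 and 6.92 in normoxic ESR2 cells. In parental cells it had 7.47, 7.46 and 7.33 in hypoxic parental cells, against 6.05, 6.49 and 6.35 in normoxic parental cells. Neither pair of groups overlapped, and the rises were 0.98 ± 0.12 and 1.12 ± 0.12 (ESR2 and parental cells; limma adjusted p = 1.35e-06 and 5.93e-08). FUNDC1, a receptor known from work on hypoxic mitophagy, behaved otherwise. Its signals were 9.46, 9.39 and 9.48 in hypoxic ESR2 cells, against 9.40, 9.41 and 9.51 in normoxic ESR2 cells. The parental ones were 9.28, 9.30 and 9.29 in hypoxic parental cells, against 9.36, 9.45 and 9.50 in normoxic parental cells. In ESR2 cells the groups overlapped, with a change of 0.00 ± 0.06, and in parental cells it fell by 0.15 ± 0.06 (limma adjusted p = 0.044), a call that 10 of 16 alternatives ended, among them leaving out any of 5 of the 6 arrays (limma adjusted p up to 0.173). PHB2, an inner-membrane prohibitin that can bind LC3, was called lower in both cells, by 0.46 and 0.43. The parental call was lost without array 2 of normoxic parental cells (-0.18, limma adjusted p = 0.175) or array 2 of hypoxic parental cells, and with estradiol PHB2 was not called there (-0.29). The ESR2 call was lost without array 1 of hypoxic ESR2 cells (-0.39, 0.0671 in limma). BCL2L13, another outer-membrane receptor, was called in neither cell (0.13 and -0.13), though with the 3′ index as a covariate it was in ESR2 cells (0.27). Other probe sets of BCL2L13 were called in opposite directions.

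**Figure D2:**
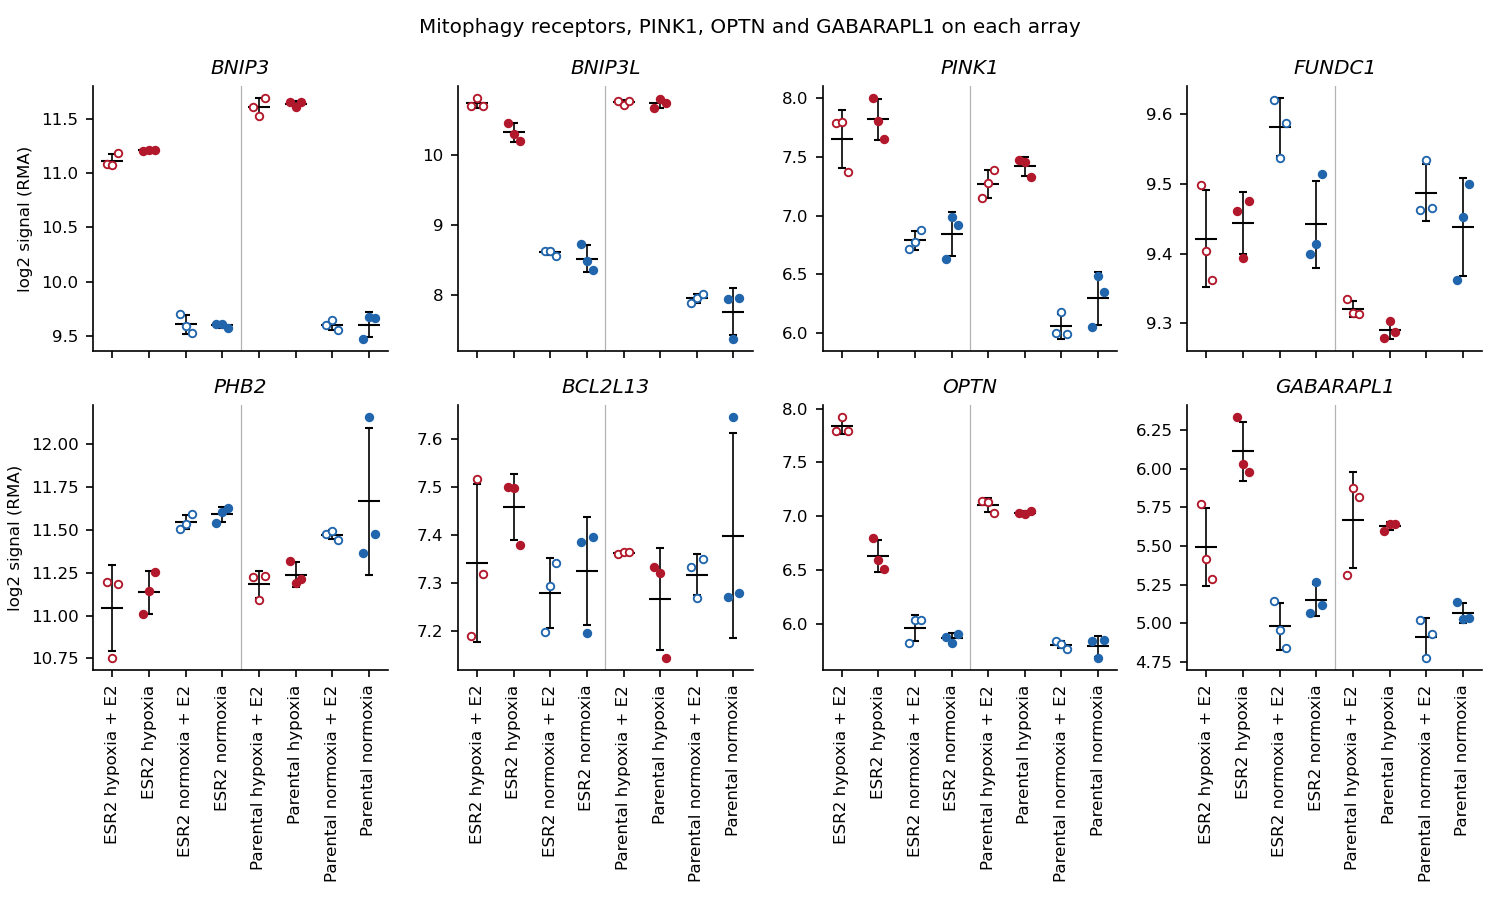
Log2 signal of the mitophagy receptors, PINK1, OPTN and GABARAPL1 on every array, by group. Points are arrays, open with estradiol and filled without, red in hypoxia and blue in normoxia, and bars are the mean and SD of 3 arrays. BNIP3, BNIP3L, PINK1, OPTN and GABARAPL1 have all hypoxic arrays above all normoxic ones of the same cells, GABARAPL1 narrowly so in ESR2 cells.

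Among cargo receptors the direction depended on the gene. OPTN, which links ubiquitin-coated mitochondria to LC3, had 6.80, 6.59 and 6.51 in hypoxic ESR2 cells, against 5.88, 5.82 and 5.91 in normoxic ESR2 cells. In parental cells it had 7.03, 7.02 and 7.05 in hypoxic parental cells, against 5.84, 5.68 and 5.85 in normoxic parental cells. It rose by 0.76 ± 0.07 and 1.24 ± 0.07 without overlap (limma adjusted p = 3.63e-08 and 3.13e-12), on all 3 of its probe sets. NBR1, a receptor for ubiquitin-marked aggregates and peroxisomes, had 7.20, 7.35 and 7.19 in hypoxic parental cells, against 6.42, 6.16 and 6.74 in normoxic parental cells. The parental groups were far apart, with a rise of 0.81 ± 0.11 (limma adjusted p = 1.45e-06), and the ESR2 rise was 0.44 ± 0.11. TAX1BP1, a receptor related to CALCOCO2, had 9.71, 9.86 and 9.85 in hypoxic parental cells, against 9.44, 8.84 and 9.34 in normoxic parental cells. It rose by 0.60 ± 0.10 there and was not called in ESR2 cells (0.20 ± 0.10). CALCOCO2 (NDP52) was called higher in both, by 0.25 and 0.24. Its calls were lost without any of 5 of the 6 ESR2 arrays and without any of 3 of the 6 parental ones (limma adjusted p up to 0.173 and 0.15).

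SQSTM1 (p62) is the best known receptor of ubiquitin-marked cargo, and its protein is itself degraded by autophagy. Its RNA signal fell in parental cells and was not called in ESR2 cells. It had 11.10, 11.08 and 11.06 in hypoxic ESR2 cells, against 11.14, 11.07 and 11.12 in normoxic ESR2 cells. In parental cells it had 10.50, 10.43 and 10.34 in hypoxic parental cells, against 11.20, 11.50 and 11.18 in normoxic parental cells. The 2 ESR2 groups overlapped at nearly the same level, whereas the parental groups did not touch. The changes were -0.03 ± 0.07 in ESR2 cells (limma adjusted p = 0.787) and -0.87 ± 0.07 in parental cells (5.36e-10). TOLLIP, a ubiquitin-binding adaptor, was lower in ESR2 cells by 0.34, a call lost with the mean of its probe sets (-0.12), and not called in parental cells (-0.05).

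ATG8 genes went up or stayed uncalled. Of 5, 4 were higher in ESR2 cells (14.4% of all genes) and 2 in parental cells (16.4%), and none was lower. GABARAPL1 had 6.33, 6.03 and 5.98 in hypoxic ESR2 cells, against 5.07, 5.26 and 5.12 in normoxic ESR2 cells. Parental cells had 5.60, 5.64 and 5.64 in hypoxic parental cells, against 5.14, 5.03 and 5.03 in normoxic parental cells. With no overlap, it rose by 0.96 ± 0.13 and 0.56 ± 0.13 (limma adjusted p = 3.83e-06 and 0.00111). MAP1LC3B, the LC3 form most used as an autophagosome marker, had 9.80, 9.80 and 9.69 in hypoxic ESR2 cells, against 9.58, 9.43 and 9.40 in normoxic ESR2 cells. In parental cells its signals were 9.54, 9.57 and 9.54 in hypoxic parental cells, against 9.56, 9.45 and 9.53 in normoxic parental cells. It rose by 0.29 ± 0.07 in ESR2 cells (limma adjusted p = 0.00135), while the parental groups overlapped (0.04 ± 0.07, 0.726). With the mean of its 3 probe sets MAP1LC3B rose by 0.54 in ESR2 cells and by 0.29 in parental cells, both called, and with that of its own GABARAPL1 rose by 0.56 and 0.33. GABARAPL2 rose in both, by 0.30 and 0.38.

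Conjugation genes went down where they were called, with 1 exception. In ESR2 cells 3 of 10 were lower and 0 higher, and in parental cells 4 were lower and 1 higher, against 18.2% and 21.2% of all genes lower. ATG4B, the protease that trims ATG8 proteins and frees them from lipid, had 5.88, 5.94 and 5.92 in hypoxic parental cells, against 6.91, 6.54 and 6.87 in normoxic parental cells. Its parental fall was 0.86 ± 0.09 (limma adjusted p = 2.07e-08). In ESR2 cells the change was a rise of 0.06 ± 0.09, not called. ATG4B had 6.70, 6.87 and 6.79 in hypoxic ESR2 cells, against 6.68, 6.66 and 6.84 in normoxic ESR2 cells. ATG4C, of the same protease family, had 5.54, 5.78 and 5.61 in hypoxic ESR2 cells, against 6.52, 6.57 and 6.33 in normoxic ESR2 cells. The parental signals were 5.78, 5.93 and 6.14 in hypoxic parental cells, against 6.45, 6.0 and 6.25 in normoxic parental cells. Here the larger fall was in ESR2 cells, 0.83 ± 0.10 against 0.28 ± 0.10 in parental cells. The parental call of ATG4C was lost without any of 4 of the 6 arrays, and without array 1 of normoxic parental cells the change was -0.17. ATG3 was lower in both, by 0.46 and 0.39. ATG16L1, the scaffold that sets where ATG8 proteins are attached, had 6.34, 6.26 and 6.14 in hypoxic parental cells, against 6.73, 7.21 and 6.52 in normoxic parental cells. It fell by 0.58 ± 0.11 and was not called in ESR2 cells (0.14), which had 6.59, 6.65 and 6.65 in hypoxic ESR2 cells, against 6.57, 6.42 and 6.49 in normoxic ESR2 cells. Without array 2 of normoxic parental cells, the array of highest index, the fall of ATG16L1 was -0.38 and called, and averaged over its probe sets -0.33. With the 3′ index as a covariate ATG16L1 was called in both cells, in opposite directions. The exception was ATG10, the E2-like enzyme for ATG12, with 6.05, 6.17 and 6.20 in hypoxic parental cells, against 5.39, 5.37 and 5.44 in normoxic parental cells. ESR2 cells had 5.72, 5.89 and 5.22 in hypoxic ESR2 cells, against 5.91, 5.88 and 5.86 in normoxic ESR2 cells. Its parental rise was 0.74 ± 0.12 (limma adjusted p = 1.87e-05), and the ESR2 change was -0.27 ± 0.12 (0.0887). In ESR2 cells ATG10 was called lower with the mean of its probe sets (-0.30), with quantile normalization again (-0.35) and without array 2 of hypoxic ESR2 cells (-0.41).

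In the ULK complex, RB1CC1 (FIP200), the scaffold, had 7.47, 7.41 and 7.27 in hypoxic ESR2 cells, against 7.03, 7.13 and 6.82 in normoxic ESR2 cells. In parental cells it had 7.92, 7.93 and 8.0 in hypoxic parental cells, against 6.79, 6.61 and 6.77 in normoxic parental cells. It rose in both, by 0.40 ± 0.09 and 1.23 ± 0.09 (limma adjusted p = 0.00127 and 7.51e-11). ATG101, the partner that stabilizes ATG13, had 8.04, 7.85 and 7.87 in hypoxic parental cells, against 8.56, 8.52 and 8.61 in normoxic parental cells. It fell by 0.65 ± 0.08 there. It had 8.47, 8.29 and 8.60 in hypoxic ESR2 cells, against 8.43, 8.26 and 8.48 in normoxic ESR2 cells, which overlapped and was not called (0.07). ATG13 is the member called in opposite directions. Its signals were 7.01, 6.97 and 7.0 in hypoxic ESR2 cells, against 6.73, 6.55 and 6.71 in normoxic ESR2 cells. They were 6.36, 6.30 and 6.45 in hypoxic parental cells, against 6.58, 7.11 and 6.49 in normoxic parental cells. The ESR2 arrays separated upward and the parental ones downward, with a rise of 0.33 ± 0.11 in ESR2 cells and a fall of 0.35 ± 0.11 in parental cells. The parental call of ATG13 was lost without array 2 of normoxic parental cells, where the change was -0.16 (limma adjusted p = 0.182), or array 2 of hypoxic parental cells, and with estradiol ATG13 was not called there (-0.12). The ESR2 call was lost without any of 4 of the 6 arrays, and averaged over its probe sets the ESR2 change was -0.0038 (limma adjusted p = 0.978). ULK2 was called higher in both (0.41 and 0.45), by 0.18 and 0.21 averaged over its probe sets. Its ESR2 call was lost without array 1 or array 2 of hypoxic ESR2 cells. ULK1, the main initiating kinase, was called in neither. Its single probe set read between 3.03 and 3.43 on all arrays, below their medians.

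Of the nucleation genes, PIK3C3 (VPS34), the lipid kinase itself, had 8.42, 8.48 and 8.21 in hypoxic ESR2 cells, against 7.45, 7.51 and 7.40 in normoxic ESR2 cells. Parental cells had 7.94, 8.14 and 8.13 in hypoxic parental cells, against 7.34, 7.22 and 7.44 in normoxic parental cells. Both rises were without overlap, 0.92 ± 0.08 and 0.73 ± 0.08 (limma adjusted p = 2.23e-09 and 2.4e-08). UVRAG, which forms a second PI3-kinase complex, had 4.37, 4.72 and 4.58 in hypoxic parental cells, against 3.77, 3.98 and 3.77 in normoxic parental cells. In ESR2 cells it had 3.96, 4.13 and 3.88 in hypoxic ESR2 cells, against 3.97, 3.86 and 3.86 in normoxic ESR2 cells. It rose by 0.72 ± 0.09 in parental cells and was not called in ESR2 cells (0.09), but from a signal near the array medians, and only 2 of its 4 probe sets went up (their mean by 0.19). PIK3R4 (VPS15) and AMBRA1 were lower in parental cells, by 0.33 and 0.48, and BECN1 higher in ESR2 cells by 0.17. Over all its probe sets, on average, AMBRA1 fell by 0.21, and the call for BECN1 was lost without any of 5 of the 6 arrays (limma adjusted p up to 0.162). ATG2A, which moves lipids to the growing membrane, had 5.88, 5.94 and 5.90 in hypoxic parental cells, against 6.59, 6.73 and 6.74 in normoxic parental cells. Its parental fall was 0.78 ± 0.09 (limma adjusted p = 3.23e-07; 0.38 with the mean of its probe sets), against -0.09 ± 0.09 in ESR2 cells. Those had 6.74, 6.75 and 6.93 in hypoxic ESR2 cells, against 6.95, 6.76 and 6.99 in normoxic ESR2 cells. In ESR2 cells 0 of the 6 genes of membrane supply were called, against 32.6% of all genes. In parental cells ATG2A was called lower and WIPI1 higher, against 37.5% of all genes called. TFE3, a transcription factor of lysosome genes, and STX17, the SNARE of autophagosome fusion, were lower in ESR2 cells by 0.27 and 0.39, and TFEB was called in neither. Both calls were lost with the mean of probe sets (-0.12 and -0.11). That of TFE3 was also lost without any of 4 of the 6 arrays, and that of STX17 without array 2 of normoxic or array 3 of hypoxic ESR2 cells.

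Set side by side, 14 members were called in the same direction in both cells. They are 63.6% of the 22 called in ESR2 cells and 51.9% of the 27 called in parental cells. Of these, 11 were higher (ULK2, RB1CC1, PIK3C3, GABARAPL1, GABARAPL2, NBR1, OPTN, CALCOCO2, BNIP3, BNIP3L and PINK1) and 3 lower (ATG3, ATG4C and PHB2). Over the alternatives the count ran from 11 to 15, and ATG3 was lower in both cells in all of them. ATG13 was called in opposite directions in 11 of 22 alternatives. ATG10 was instead with the mean of probe sets, with quantile normalization again and without array 2 of hypoxic ESR2 cells. With the 3′ index as a covariate ATG16L1 was instead. How many of all genes were called alike in both cells was not counted. The shares of 63.6% and 51.9% therefore have no background to be read against, nor do the shares of recurring calls with estradiol below.

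Whether the hypoxia change itself differs between cells was tested as an interaction, the ESR2 change minus the parental change. 20 of 47 members differed, against 30.7% of all genes. For 9 the difference was positive (16.4% of all genes) and for 11 negative (14.3%). The positive ones were mostly parental falls that were small or absent in ESR2 cells. ATG4B differed by 0.92 ± 0.12, SQSTM1 by 0.84 ± 0.10, ATG16L1 by 0.72 ± 0.15, ATG101 by 0.71 ± 0.11, ATG2A by 0.69 ± 0.13 and ATG13 by 0.68 ± 0.16 (limma SE, adjusted p between 7.41e-07 and 0.00214). Averaged over probe sets, ATG2A differed by 0.34 and was called, and ATG13 by 0.28 and was not (limma adjusted p = 0.0762).

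Among the negative ones were rises that were smaller in ESR2 cells. BNIP3L differed by -1.18 ± 0.16 (limma adjusted p = 4.55e-06), RB1CC1 by -0.83 ± 0.13, OPTN by -0.48 ± 0.11 and BNIP3 by -0.42 ± 0.09 (0.000954). The difference of OPTN was not called with the mean of its probe sets (-0.15, limma adjusted p = 0.338). ATG10, at -1.01 ± 0.17, was a parental rise with no call in ESR2 cells, and ATG4C, at -0.55 ± 0.14, a larger fall. UVRAG differed by -0.62 ± 0.13, but by -0.20 with the mean of its probe sets, which was not called (limma adjusted p = 0.102). PINK1 was not called, at -0.15 with a 95% interval of -0.51 to 0.21, but was with the mean of its probe sets (-0.39, limma adjusted p = 0.0458). GABARAPL1, at 0.40 with an unadjusted 95% interval of 0.02 to 0.78, was not called either, but was with the spread taken from these groups alone (limma adjusted p = 0.0377).

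**Figure D3:**
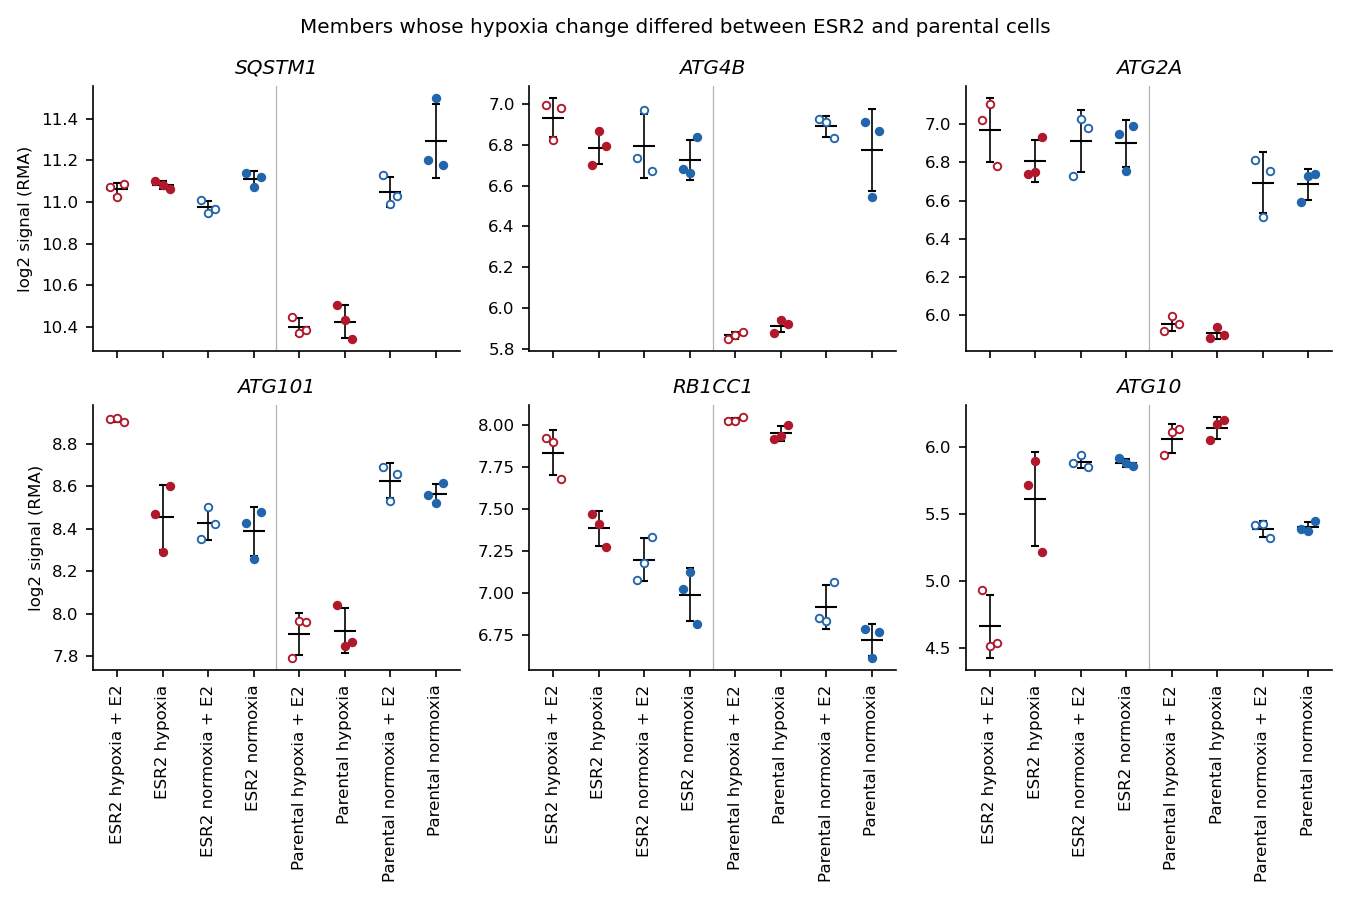
Log2 signal on every array of 6 members whose hypoxia change differed between ESR2 cells (left in each panel) and parental cells (right). Points are arrays, red in hypoxia and blue in normoxia, open with estradiol, and bars are mean and SD. SQSTM1, ATG4B, ATG2A and ATG101 lie lower on hypoxic than on normoxic parental arrays, and ATG10 lies higher there and is lowest in hypoxic ESR2 cells with estradiol.

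BNIP3L and PINK1 stood higher in ESR2 cells already in normoxia, where 10 of 47 members differed between ESR2 and parental cells, against 18.6% of all genes, 6 higher (9.76%) and 4 lower (8.86%) in ESR2 cells. BNIP3L had 8.72, 8.49 and 8.35 in normoxic ESR2 cells, against 7.95, 7.37 and 7.95 in normoxic parental cells. All ESR2 arrays were above all parental ones, by 0.76 ± 0.11 (limma adjusted p = 4.4e-05), and by 0.29, still called, with the mean of its 6 probe sets. PINK1 had 6.63, 6.98 and 6.92 in normoxic ESR2 cells, against 6.05, 6.49 and 6.35 in normoxic parental cells. It was higher by 0.55 ± 0.12 (0.00259 in limma). BNIP3 did not differ detectably, at 0.00 with a 95% interval of -0.14 to 0.13. ATG10, NBR1, ATG2B and RB1CC1 were higher by 0.27 to 0.48, and ATG7, ATG12, ATG16L1 and GABARAPL2 lower by 0.21 to 0.49. Without array 2 of normoxic parental cells 3 of these calls were lost: ATG16L1 (-0.33 with it and -0.13 without), ATG2B (0.24) and RB1CC1 (0.21). The calls of these 3 were also lost without array 1 or array 2 of normoxic ESR2 cells, and that of ATG16L1 without array 3 too. With estradiol ATG16L1 differed by -0.04 and was not called. As averages of probe sets, NBR1 was higher by 0.17, and ATG7 (-0.19), ATG16L1, ATG2B and RB1CC1 were not called. With the spread taken from these 2 groups alone, 3 members were called and PINK1 was not (limma adjusted p = 0.0601).

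In hypoxia the cells differed in more members, 27 of 47, against 40.4% of all genes. 14 were higher (20.4%) and 13 lower (20%) in ESR2 cells. ATG2A had 6.74, 6.75 and 6.93 in hypoxic ESR2 cells, against 5.88, 5.94 and 5.90 in hypoxic parental cells. It was 1.87-fold higher (limma adjusted p = 5.08e-08), and ATG4B was 1.83-fold higher, with 6.70, 6.87 and 6.79 in hypoxic ESR2 cells, against 5.88, 5.94 and 5.92 in hypoxic parental cells. SQSTM1 was higher by 0.66 ± 0.07 and ATG101 by 0.53 ± 0.08, again without overlap. GABARAPL1 was higher by 0.49 ± 0.13. ATG12, the ubiquitin-like protein joined to ATG5, had 8.07, 8.03 and 8.24 in hypoxic ESR2 cells, against 8.76, 8.94 and 8.92 in hypoxic parental cells. Over all probe sets of a gene, on average, ATG2A was higher by 0.40 and GABARAPL1 by 0.32. ATG12 was the member lower by most in ESR2 cells, by 0.76 ± 0.09, followed by UVRAG (-0.57), RB1CC1 (-0.56) and ATG10 (-0.53). UVRAG was lower by 0.32 with the mean of its probe sets, and ATG10 by 0.33 without array 3 of hypoxic ESR2 cells. BNIP3, BNIP3L and OPTN were lower by 0.43, 0.42 and 0.40, and averaged over its probe sets OPTN turned to 0.03 (limma adjusted p = 0.781). PINK1 was higher by 0.40, which was not called with the mean of its probe sets (0.11, limma adjusted p = 0.422), without array 3 of hypoxic parental cells or without array 1 of hypoxic ESR2 cells, and ATG13, higher by 0.62, was not called with the mean of its probe sets (0.14, 0.192).

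The groups with estradiol share no array with those without it, so each comparison was made again in them, under the hormone and its medium. Both sets come from the same fit and share its estimate of spread, so recurring calls are not independent repeats. In parental cells most calls recurred. 30 of 47 were called, against 34.8% of all genes, 18 higher (16.1%) and 12 lower (18.7%). Of these, 25 were also called in the same direction without estradiol (83.3% of the 30, and 92.6% of the 27), and 0 in the opposite one. BNIP3L had 10.77, 10.72 and 10.78 in hypoxic parental cells with estradiol, against 7.88, 7.96 and 8.01 in normoxic parental cells with estradiol. BNIP3 had 11.61, 11.53 and 11.70 in hypoxic parental cells with estradiol, against 9.60, 9.65 and 9.55 in normoxic parental cells with estradiol. PINK1 had 7.15, 7.28 and 7.39 in hypoxic parental cells with estradiol, against 5.997, 6.18 and 5.99 in normoxic parental cells with estradiol. These mitophagy genes rose by 2.81 ± 0.11 (BNIP3L), 2.02 ± 0.06 (BNIP3) and 1.22 ± 0.12 (PINK1) on the log2 scale, with no overlap. FUNDC1, with 9.33, 9.31 and 9.31 in hypoxic parental cells with estradiol, against 9.46, 9.53 and 9.47 in normoxic parental cells with estradiol, fell by 0.17 ± 0.06 (limma adjusted p = 0.0242), a call that 4 of 15 alternatives ended, among them leaving out any of 3 arrays (limma adjusted p up to 0.103). Averaged over its probe sets, BNIP3 rose by 0.95.

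OPTN had 7.14, 7.14 and 7.03 in hypoxic parental cells with estradiol, against 5.84, 5.82 and 5.77 in normoxic parental cells with estradiol. NBR1 had 7.29, 7.45 and 7.26 in hypoxic parental cells with estradiol, against 6.54, 6.38 and 6.58 in normoxic parental cells with estradiol. SQSTM1 had 10.45, 10.37 and 10.38 in hypoxic parental cells with estradiol, against 11.13, 10.99 and 11.03 in normoxic parental cells with estradiol. The first pair of cargo receptors rose by 1.30 ± 0.07 and 0.83 ± 0.11, and SQSTM1 fell by 0.65 ± 0.07. MAP1LC3B had 9.57, 9.54 and 9.55 in hypoxic parental cells with estradiol, against 9.40, 9.34 and 9.36 in normoxic parental cells with estradiol. GABARAPL1 had 5.31, 5.88 and 5.82 in hypoxic parental cells with estradiol, against 5.02, 4.77 and 4.93 in normoxic parental cells with estradiol. Both ATG8 genes rose, by 0.19 ± 0.07 (limma adjusted p = 0.0277) and 0.76 ± 0.13. The call for MAP1LC3B was lost without any of 5 of the 6 arrays compared, and with the mean of probe sets the rises were 0.38 and 0.43, both called.

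ATG4B had 5.85, 5.87 and 5.88 in hypoxic parental cells with estradiol, against 6.92, 6.91 and 6.83 in normoxic parental cells with estradiol. ATG2A had 5.92, 5.99 and 5.95 in hypoxic parental cells with estradiol, against 6.81, 6.51 and 6.75 in normoxic parental cells with estradiol. ATG101 had 7.79, 7.97 and 7.96 in hypoxic parental cells with estradiol, against 8.69, 8.53 and 8.66 in normoxic parental cells with estradiol. All 3 fell, by 1.02, 0.74 and 0.72, with an SE of 0.08 to 0.09. RB1CC1 had 8.03, 8.02 and 8.05 in hypoxic parental cells with estradiol, against 6.85, 6.84 and 7.07 in normoxic parental cells with estradiol. PIK3C3 had 8.19, 8.10 and 8.22 in hypoxic parental cells with estradiol, against 7.41, 7.37 and 7.40 in normoxic parental cells with estradiol. ATG10 had 5.94, 6.11 and 6.13 in hypoxic parental cells with estradiol, against 5.42, 5.42 and 5.32 in normoxic parental cells with estradiol. They rose by 1.11 ± 0.09, 0.78 ± 0.08 and 0.67 ± 0.12. ULK2 had 5.29, 5.12 and 5.21 in hypoxic parental cells with estradiol, against 4.81, 4.54 and 4.58 in normoxic parental cells with estradiol. UVRAG had 4.61, 4.27 and 4.42 in hypoxic parental cells with estradiol, against 3.86, 3.92 and 3.94 in normoxic parental cells with estradiol. Their rises were 0.57 ± 0.12 and 0.53 ± 0.09, and that of UVRAG was not called with the mean of its probe sets (0.07, limma adjusted p = 0.469). With that mean ULK2 rose by 0.22 and ATG2A fell by 0.35.

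In ESR2 cells with estradiol 30 members were called, against 52.3% of all genes, 18 higher (29.6%) and 12 lower (22.6%). Of these, 16 matched the call without estradiol (53.3% of the 30, and 72.7% of the 22), and 3 (ULK2, ATG13 and TFE3) were called the other way, at -0.36, -0.37 and 0.23. These calls were lost without any of 3 arrays for ULK2, of 1 for ATG13 and of 3 for TFE3. BNIP3L had 10.71, 10.82 and 10.70 in hypoxic ESR2 cells with estradiol, against 8.63, 8.63 and 8.56 in normoxic ESR2 cells with estradiol. BNIP3 had 11.09, 11.08 and 11.19 in hypoxic ESR2 cells with estradiol, against 9.70, 9.59 and 9.53 in normoxic ESR2 cells with estradiol. PINK1 had 7.79, 7.80 and 7.37 in hypoxic ESR2 cells with estradiol, against 6.72, 6.78 and 6.88 in normoxic ESR2 cells with estradiol. The rises, without overlap, were 2.13 ± 0.11 for BNIP3L, 1.51 ± 0.06 for BNIP3 and 0.86 ± 0.12 for PINK1. FUNDC1, with 9.50, 9.40 and 9.36 in hypoxic ESR2 cells with estradiol, against 9.62, 9.54 and 9.59 in normoxic ESR2 cells with estradiol, fell by 0.16 ± 0.06 (limma adjusted p = 0.0221), a call that 7 of 14 alternatives ended, among them leaving out any of 4 arrays (limma adjusted p up to 0.0937). PHB2, with 11.20, 10.75 and 11.18 in hypoxic ESR2 cells with estradiol, against 11.51, 11.54 and 11.59 in normoxic ESR2 cells with estradiol, fell by 0.50 ± 0.14, and by 0.77 with the 3′ index as a covariate. With the mean of its probe sets BNIP3 rose by 0.88.

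OPTN had 7.80, 7.92 and 7.79 in hypoxic ESR2 cells with estradiol, against 5.82, 6.04 and 6.04 in normoxic ESR2 cells with estradiol. Its rise was 1.87 ± 0.07, beside 0.76 without estradiol. SQSTM1 had 11.07, 11.02 and 11.08 in hypoxic ESR2 cells with estradiol, against 11.01, 10.95 and 10.97 in normoxic ESR2 cells with estradiol. At 0.09 ± 0.07 it was not called (limma adjusted p = 0.318). MAP1LC3B had 10.33, 10.48 and 10.20 in hypoxic ESR2 cells with estradiol, against 9.44, 9.43 and 9.39 in normoxic ESR2 cells with estradiol. GABARAPL1 had 5.77, 5.42 and 5.28 in hypoxic ESR2 cells with estradiol, against 5.14, 4.95 and 4.84 in normoxic ESR2 cells with estradiol. They rose by 0.92 ± 0.07 and 0.51 ± 0.13, and all 5 ATG8 genes were called higher (29.6% of all genes), though the call for MAP1LC3A (0.22) was lost without any of 3 arrays. Over all its probe sets, on average, GABARAPL1 rose by 0.34. PIK3C3 had 8.998, 8.96 and 8.86 in hypoxic ESR2 cells with estradiol, against 7.53, 7.61 and 7.62 in normoxic ESR2 cells with estradiol. RB1CC1 had 7.92, 7.90 and 7.68 in hypoxic ESR2 cells with estradiol, against 7.08, 7.18 and 7.34 in normoxic ESR2 cells with estradiol. Their rises were 1.35 ± 0.08 and 0.64 ± 0.09.

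ATG10 had 4.93, 4.51 and 4.53 in hypoxic ESR2 cells with estradiol, against 5.88, 5.94 and 5.85 in normoxic ESR2 cells with estradiol. ATG4C had 5.36, 5.24 and 5.30 in hypoxic ESR2 cells with estradiol, against 6.54, 6.49 and 6.54 in normoxic ESR2 cells with estradiol. VMP1, an ER membrane protein of autophagosome formation, had 7.64, 7.50 and 7.66 in hypoxic ESR2 cells with estradiol, against 8.86, 8.44 and 8.56 in normoxic ESR2 cells with estradiol. All 3 fell by more than any other member, by 1.23 ± 0.12, 1.22 ± 0.10 and 1.02 ± 0.17. PIK3R4 had 6.84, 6.78 and 6.64 in hypoxic ESR2 cells with estradiol, against 7.21, 7.36 and 7.30 in normoxic ESR2 cells with estradiol and fell by 0.53. With the 3′ index as a covariate, 27 members were called, and the fall of VMP1 was 0.46.

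**Figure D4:**
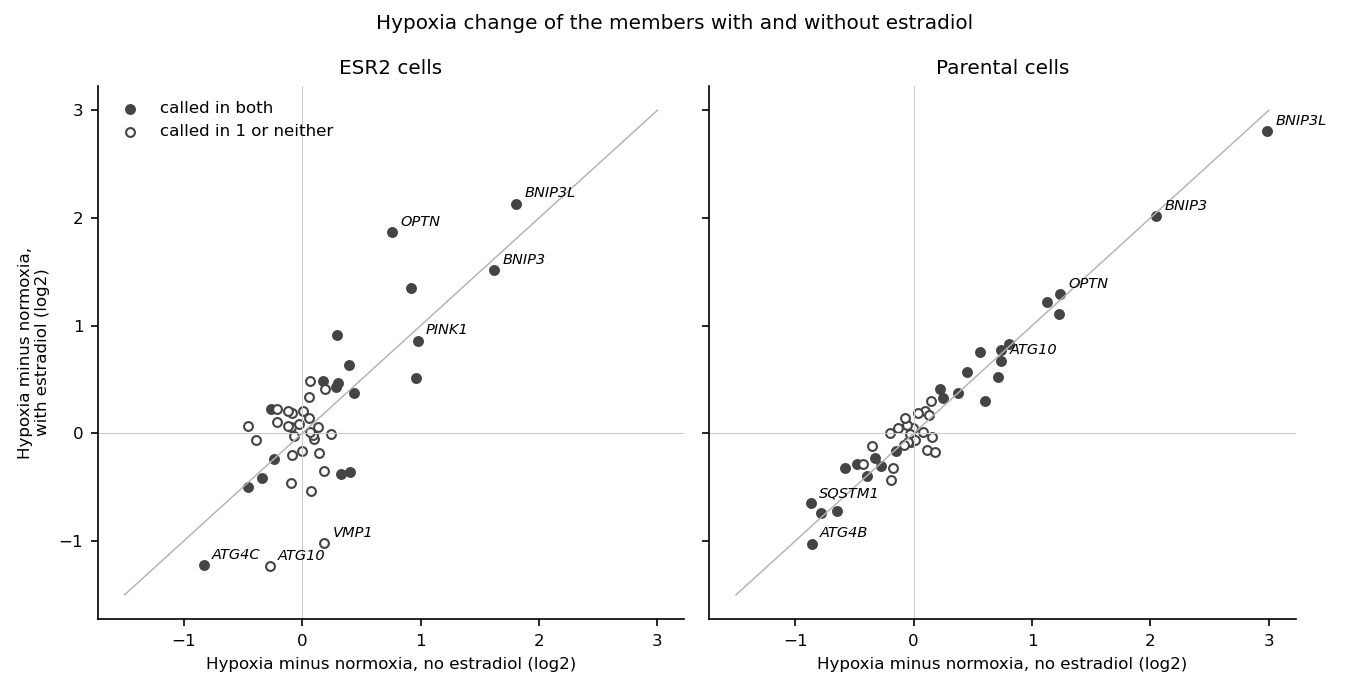
Hypoxia change of the 47 members with estradiol (vertical) against that without it (horizontal), in log2 signal, for ESR2 cells and parental cells. Each point is a gene, filled where it was called in both, and the line marks equal change. Parental points follow the line, and in ESR2 cells ATG10, VMP1 and ATG4C lie below it and OPTN above.

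The interaction with estradiol called 25 members, against 38.6% of all genes, 11 positive (20.6%) and 14 negative (18.1%). Quantile normalization again gave 12 positive and 10 negative. For 12 members the hypoxia change differed in the same direction as without estradiol: ATG101, ATG2A, ATG4B, MAP1LC3B and SQSTM1 with a positive difference, and RB1CC1, UVRAG, WIPI1, ATG4C, ATG10, BNIP3 and BNIP3L with a negative one. They are 48% of the 25 and 60% of the 20. Without estradiol the call for MAP1LC3B (0.26 ± 0.09, limma adjusted p = 0.0418) was lost in 10 of 22 alternatives and that for WIPI1 (-0.34 ± 0.12) in 9, among them leaving out any of 9 arrays for MAP1LC3B and any of 7 for WIPI1. With estradiol PIK3R4 (-0.31) and OPTN (0.57) were called the other way, and the call for PIK3R4 was lost without any of 5 arrays. BNIP3L differed by -0.67 ± 0.16, SQSTM1 by 0.74 ± 0.10 and ATG10 by -1.91 ± 0.17. The difference of BNIP3, -0.50 ± 0.09, was not called with the mean of its 2 probe sets (-0.07, limma adjusted p = 0.588).

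Between the cells in normoxia with estradiol 7 members were called, against 13.7% of all genes, 5 higher (8.45%) and 2 lower (5.22%) in ESR2 cells. All 7 were called in the same direction without estradiol: RB1CC1, ATG10, NBR1, BNIP3L and PINK1 as higher and ATG12 and GABARAPL2 as lower. PINK1 had 6.72, 6.78 and 6.88 in normoxic ESR2 cells with estradiol, against 5.997, 6.18 and 5.99 in normoxic parental cells with estradiol. The difference was 0.73 ± 0.12 for PINK1 and 0.66 ± 0.11 for BNIP3L, and -0.68 ± 0.09 for ATG12. Averaged over its probe sets, BNIP3L was higher by 0.34. The count was 4 without replicate 2 of normoxic parental cells with estradiol, and also without replicate 2 or replicate 3 of normoxic ESR2 cells with estradiol.

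In hypoxia with estradiol 25 differed between the cells, against 47.7% of all genes, 14 higher (27.8%) and 11 lower (19.8%) in ESR2 cells. ATG4B (1.07 ± 0.09), ATG2A (1.01 ± 0.09) and ATG101 (1.01 ± 0.08) were the highest of them, and ATG10 (-1.40 ± 0.12) and ULK2 (-1.04 ± 0.12) the lowest. OPTN was higher by 0.73 ± 0.07 and SQSTM1 by 0.66 ± 0.07. ATG4B had 6.995, 6.82 and 6.98 in hypoxic ESR2 cells with estradiol, against 5.85, 5.87 and 5.88 in hypoxic parental cells with estradiol. ATG2A had 7.02, 7.11 and 6.78 in hypoxic ESR2 cells with estradiol, against 5.92, 5.99 and 5.95 in hypoxic parental cells with estradiol. ATG101 had 8.92, 8.92 and 8.90 in hypoxic ESR2 cells with estradiol, against 7.79, 7.97 and 7.96 in hypoxic parental cells with estradiol. The ESR2 arrays of all 3 lay above all parental ones. ULK2 had 4.04, 4.41 and 4.06 in hypoxic ESR2 cells with estradiol, against 5.29, 5.12 and 5.21 in hypoxic parental cells with estradiol. BECN1, the scaffold of the PI3-kinase complex, had 11.01, 11.11 and 11.001 in hypoxic ESR2 cells with estradiol, against 10.39, 10.45 and 10.40 in hypoxic parental cells with estradiol. ATG7, the E1-like enzyme of conjugation, had 4.58, 4.38 and 4.51 in hypoxic ESR2 cells with estradiol, against 5.38, 5.09 and 5.25 in hypoxic parental cells with estradiol. BECN1 was higher by 0.62 ± 0.06, and ATG7 and UVRAG were lower by 0.75 and 0.53. UVRAG had 3.91, 3.96 and 3.83 in hypoxic ESR2 cells with estradiol, against 4.61, 4.27 and 4.42 in hypoxic parental cells with estradiol. VMP1 had 7.64, 7.50 and 7.66 in hypoxic ESR2 cells with estradiol, against 8.62, 8.64 and 8.61 in hypoxic parental cells with estradiol. ATG4C had 5.36, 5.24 and 5.30 in hypoxic ESR2 cells with estradiol, against 6.08, 6.14 and 6.22 in hypoxic parental cells with estradiol. For VMP1 and ATG4C the ESR2 arrays lay below all parental ones, and both were called lower. BNIP3L, at -0.02 ± 0.11, was not called from its brightest probe set and was from the mean of its 6 (-0.53). As averages of probe sets, ATG2A was higher by 0.51 and OPTN by 1.17, and ULK2 and UVRAG were lower by 0.28 and 0.28.

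With estradiol, no member was called in 3 of the 4 settings of cells and oxygen. In normoxic ESR2 cells 0 of 47 were called (0% of all genes) and 4 had an unadjusted limma p under 0.05, against 5.38% of all genes. In hypoxic parental cells 0 were called (0.0164% of all genes, 0.00548% higher and 0.011% lower) and 0 had such a p, against 4.64% of all genes. In normoxic parental cells 0 were called (0.011%) and 13 had such a p, against 13.8% of all genes; without replicate 1 of normoxic parental cells 3 were called. PINK1 changed by -0.05 (95% interval -0.31 to 0.20) in normoxic ESR2 cells and BNIP3L by 0.02 (-0.22 to 0.25) in hypoxic parental cells.

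In hypoxic ESR2 cells 28 of 47 were called, close to the 57% of all genes, 16 higher (35.4%) and 12 lower (21.6%). OPTN had 7.80, 7.92 and 7.79 in hypoxic ESR2 cells with estradiol, against 6.80, 6.59 and 6.51 in hypoxic ESR2 cells. VMP1 had 7.64, 7.50 and 7.66 in hypoxic ESR2 cells with estradiol, against 8.87, 8.93 and 8.66 in hypoxic ESR2 cells. Neither gene's groups overlapped, with a rise of 1.20 ± 0.07 for OPTN and a fall of 1.22 ± 0.17 for VMP1 (limma adjusted p = 6.42e-12 and 2.16e-06). ATG13 had 6.27, 6.38 and 6.004 in hypoxic ESR2 cells with estradiol, against 7.01, 6.97 and 7.0 in hypoxic ESR2 cells. ULK2 had 4.04, 4.41 and 4.06 in hypoxic ESR2 cells with estradiol, against 4.85, 4.92 and 4.60 in hypoxic ESR2 cells. ATG7 had 4.58, 4.38 and 4.51 in hypoxic ESR2 cells with estradiol, against 4.87, 5.14 and 4.997 in hypoxic ESR2 cells. All 3 lay lower with estradiol, without overlap. ATG10 fell by 0.95, ATG13 by 0.78, ULK2 by 0.62, GABARAPL1 by 0.62, PIK3R4 by 0.53 and ATG7 by 0.51, and MAP1LC3B and PIK3C3 rose by 0.57 and 0.57. BNIP3 (-0.10 ± 0.06), PINK1 (-0.17 ± 0.12), SQSTM1 (-0.02 ± 0.07) and FUNDC1 (-0.02 ± 0.06) were not called.

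This is the group whose 3′ index averaged 3.74, against 2.10 without estradiol. The median of all genes also moved, by 0.12, against -0.02 for members. Quantile normalization again gave 23 higher and 9 lower. With the index as a covariate 22 were called, and ULK2 (-0.39, limma adjusted p = 0.1) and GABARAPL1 (-0.41, 0.105) no longer were. The fall of VMP1 was then 0.35 and that of ATG13 1.23. The shares of all genes called in these settings are not given here, so the counts have no background to be read against. Over all probe sets of a gene, on average, ATG10 fell by 0.59, GABARAPL1 by 0.36, ATG13 by 0.30 and ULK2 by 0.12. The part of the index in these calls was not tested further.

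**Figure D5:**
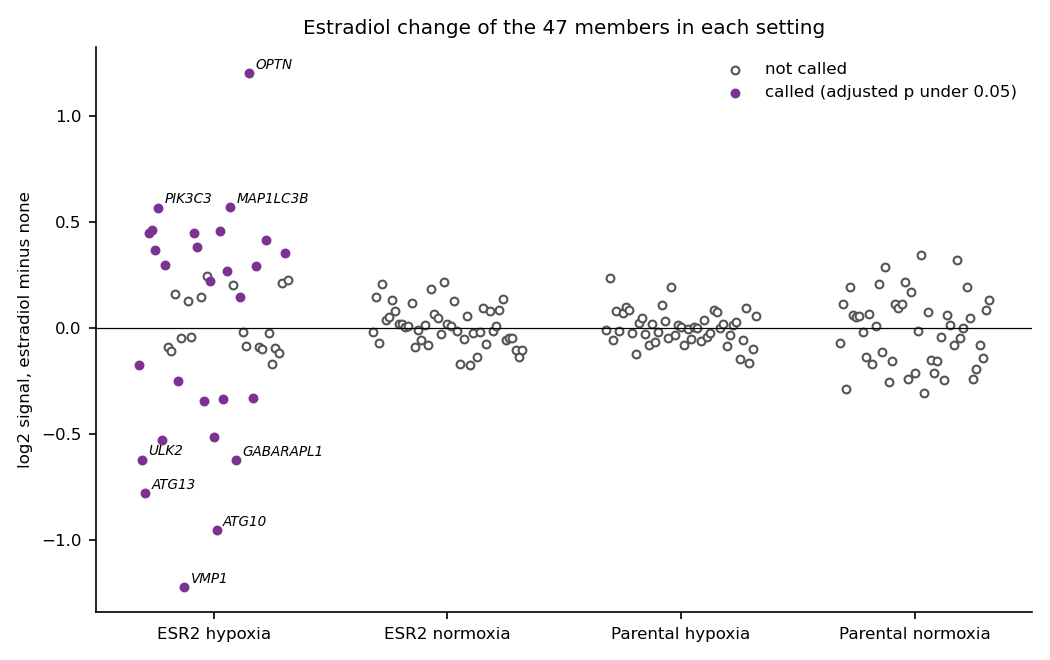
Change with estradiol of the 47 members in the 4 settings of cells and oxygen, in log2 signal with estradiol minus without. Each point is a gene, filled where the adjusted p is under 0.05. In hypoxic ESR2 cells the points run from -1.22 (VMP1) to 1.20 (OPTN), and 0 are called in the other settings.

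Genes that act around the members were counted in the same way, against 14.4% of all genes higher and 18.2% lower in hypoxic ESR2 cells, and 16.4% higher and 21.2% lower in hypoxic parental cells. Of 28 measured lysosome genes, most of them TFEB targets, 14 were higher and 3 lower in hypoxic ESR2 cells, and 13 higher and 6 lower in hypoxic parental cells. TPP1, a lysosomal peptidase, rose by 1.06 and 0.98. MCOLN1, the lysosomal calcium channel, fell by 1.44 in parental cells, and its change differed between cells by 1.74 ± 0.14. Of 14 genes of autophagosome-lysosome fusion, 3 were higher and 3 lower in ESR2 cells, and 4 higher and 5 lower in parental cells. PLEKHM1, an adaptor of that fusion, and YKT6, a SNARE, fell by 1.24 and 1.13 in parental cells, and differed between cells by 1.62 ± 0.15 and 0.98 ± 0.10. Of 16 other core genes, 5 were higher and 3 lower in ESR2 cells and 3 higher and 5 lower in parental cells. NRBF2, a subunit of the PI3-kinase complex, changed by 0.33 ± 0.09 and -0.70 ± 0.09, called in both, and so in opposite directions. Averaged over probe sets, TPP1 rose by 0.24 and 0.33, NRBF2 by 0.18 in ESR2 cells, and MCOLN1 and YKT6 fell by 0.90 and 0.67 in parental cells, all still called, with a difference between cells of 1.02 for MCOLN1.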

How the data were processed

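The authors deposited log2 signals of 49386 probe sets on 24 arrays, made with affy and RMA per the submitters' processing notes, with versions not given in the sources used here. RMA corrects background, quantile-normalizes and sums up each probe set. It compresses changes of dim genes, and probes far from the 3′ end depend on RNA length. Of the probe sets, 45253 carry 1 gene symbol in GEO's platform annotation, 1327 several and 2713 none here, and 93 are controls. No symbol needed an update against RefSeq (GRCh38.p14), and the Entrez IDs of 81 probe sets were not in it. The brightest probe set stood for each of 18239 genes, without a filter on dim genes.

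With limma 3.58.1 in R 4.3.3 a model with 8 group means was fitted on all arrays (lmFit and eBayes, no trend, not robust, 16 residual degrees of freedom) and tested in 14 comparisons, with Benjamini-Hochberg adjustment over all genes and a threshold of 0.05. The fit was tested on simulated data. Errors are limma's SE, or the SD for group means. Any member could be named. Values on every array could be given for members called with a log2 change of at least 0.5 and groups that do not overlap. They could also be given for BNIP3, BNIP3L, FUNDC1, PINK1, SQSTM1, MAP1LC3B and GABARAPL1. Not every comparison that met this rule has its values printed. Of the other lists, up to 3 genes with the smallest p were named. The members, lists and rules were chosen with earlier results of these data known. Alternatives were averaging the probe sets of a gene, leaving out the dimmest genes (1 in 3), quantile normalization again and centring on medians. Others were an intensity trend with a robust prior, a spread from only the groups compared, and a block for the replicate number. The 3′ minus 5′ index as a covariate and each array left out in turn were also used. Leaving hypoxic ESR2 cells with estradiol out of the fit, and the covariate without array 2 of normoxic parental cells, were added after seeing the data. Counts of members under the alternatives are given without the share of all genes called there. Promoter windows are RefSeq's.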

Additional observations from a re-analysis of the deposited data

Results flagged for a closer look

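For 11 members the response to hypoxia without estradiol was not the same in ESR2 as in parental cells, by at least 0.5 on the log2 scale, by the interaction test of limma at an adjusted p under 0.05. As the ESR2 change minus the parental change, the positive values were 0.92 for ATG4B, 0.84 for SQSTM1, 0.72 for ATG16L1, 0.71 for ATG101, 0.69 for ATG2A and 0.68 for ATG13. The negative values were -1.18 for BNIP3L, -1.01 for ATG10, -0.83 for RB1CC1, -0.62 for UVRAG and -0.55 for ATG4C. With the mean of probe sets, the differences of ATG13 and UVRAG were not called.

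With estradiol, 15 members met the same test. The positive values were 1.21 for ATG101, 1.16 for ATG4B, 0.80 for ATG2A, 0.74 for SQSTM1, 0.73 for MAP1LC3B, 0.58 for PIK3C3, 0.57 for OPTN and 0.50 for BECN1. The negative values were -1.91 for ATG10, -0.93 for ULK2, -0.92 for ATG4C, -0.87 for VMP1, -0.67 for BNIP3L, -0.54 for UVRAG and -0.50 for BNIP3. They rest on the hypoxic ESR2 group with estradiol, whose 3′ index averaged 3.74. With the mean of probe sets, the difference of BNIP3 was not called.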

How the results depend on the processing

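With the mean of probe sets 9 single values changed sign where either was called: ATG5 in hypoxia (-0.17 and 0.18 in parental cells, -0.33 and 0.038 with estradiol, -0.23 and 0.047 in ESR2 cells with estradiol), ATG13 in ESR2 cells (0.33 and -0.0038), ATG4A (-0.03 and 0.21), OPTN (-0.40 and 0.029) and BCL2L13 (0.19 and -0.19) between the cells in hypoxia, and GABARAPL2 (0.15 and -0.037) and BCL2L13 (-0.12 and 0.14) with estradiol in hypoxic ESR2 cells. With the index as a covariate VMP1 in hypoxic parental cells was -0.33, in place of 0.12, and -0.33 also without array 2 of normoxic parental cells; the causes were not tested. The count of members that differed between ESR2 and parental cells in normoxia was 3 with only the groups compared, in place of 10, and with estradiol it was 12 with only the groups compared and 11 with the mean of probe sets, in place of 7; the cause was not tested. Leaving out each array in turn gave 14 to 21 members for hypoxia in ESR2 cells, 4 to 8 for ESR2 against parental cells in normoxia with estradiol and 0 to 3 for estradiol in normoxic parental cells. It gave 22 to 27 for hypoxia in parental cells, 16 to 20 for the interaction, 7 to 12 between the cells in normoxia and 22 to 26 in hypoxia. Of the values of the 47 members in the 14 comparisons and of the other genes named, over all alternatives other than leaving out an array, 162 lost their call and 113 gained one, and without an array 223 lost and 44 gained one. The members' median of the interaction with estradiol, 0.01, was -0.06 with the mean of probe sets, 0.09 with quantile normalization again and -0.09 with the index as a covariate, so its sign is not settled. Same-numbered replicates were not paired: of 84 pairs of groups and numbers, 9 correlated above 0.1 in their deviations (range -0.29 to 0.29), and 1 of 24 arrays correlated best with its own number. With the replicate number as a block, 26 members were called for hypoxia in parental cells, 21 in ESR2 cells, 20 for the interaction, 9 between the cells in normoxia and 26 in hypoxia. With estradiol the blocked counts were 30, 30, 25, 6 and 24 in the same order, and for estradiol itself 28 in hypoxic ESR2 cells and 0 in the other settings. Dim genes such as ULK1, TFE3 and UVRAG lie near or below the array medians, which limits what their values can show.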

Other observations

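Receptors that send endoplasmic reticulum to autophagy were counted as well, against the same shares of all genes (14.4% higher and 18.2% lower in ESR2 cells, 16.4% and 21.2% in parental cells). Of 7, 1 was higher and 1 lower in hypoxic ESR2 cells, and 0 higher and 1 lower in hypoxic parental cells. ATL3, an atlastin that shapes ER tubules, rose by 0.53 ± 0.08 and RETREG1 (FAM134B), a receptor for ER sheets, fell by 0.56 ± 0.13 in ESR2 cells. TEX264 fell by 0.62 ± 0.09 in parental cells. The ATL3 call was lost with the mean of its probe sets (0.07, limma adjusted p = 0.263), and RETREG1 fell by 0.36 without array 3 of hypoxic ESR2 cells. In hypoxic ESR2 cells estradiol came with changes in 5 of the 7, against 57% of all genes, among them SEC62 (0.97 ± 0.07), CCPG1 (1.32 ± 0.12) and RETREG1 (-1.48 ± 0.13), in the group whose 3′ index stands apart. With the mean of probe sets SEC62 and CCPG1 changed by 0.54 and 0.49.

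Of 15 measured genes of parkin-type mitophagy and mitochondrial shape, 1 was higher and 6 were lower in hypoxic ESR2 cells (14.4% and 18.2% of all genes). In hypoxic parental cells 4 were higher and 6 lower (16.4% and 21.2% of all genes). MFN1, a mitofusin, fell by 1.11 ± 0.11 in ESR2 cells, and MFN2 fell by 0.56 ± 0.06 in parental cells. MFN1 was also lower there, with 6.716, 6.855 and 6.877 in hypoxic parental cells, against 7.524, 6.991 and 7.29 in normoxic parental cells. USP30, a deubiquitinase that opposes parkin, rose by 0.41 ± 0.08 in ESR2 cells, and its change differed between cells by 0.69 ± 0.11. OPA1, which fuses inner membranes, was lower in hypoxic ESR2 than in hypoxic parental cells by 1.12 ± 0.14. Of 15 upstream regulators, 9 were higher and 2 lower in ESR2 cells (14.4% and 18.2% of all genes). In parental cells 5 were higher and 6 lower (16.4% and 21.2% of all genes). DDIT4 had 11.29, 11.15 and 11.13 in hypoxic ESR2 cells, against 8.20, 7.97 and 7.98 in normoxic ESR2 cells. Its parental values were 12.03, 11.98 and 12.02 in hypoxic parental cells, against 7.34, 6.72 and 7.46 in normoxic parental cells. HIF1A had 8.56, 8.79 and 8.60 in hypoxic ESR2 cells, against 10.39, 10.47 and 10.27 in normoxic ESR2 cells. Its parental values were 9.361, 9.447 and 9.475 in hypoxic parental cells, against 10.107, 9.647 and 10.032 in normoxic parental cells. PRKAB1, a subunit of the kinase AMPK, fell by 1.11 ± 0.07 in parental cells. With the mean of probe sets MFN2 (-0.22) and USP30 in ESR2 cells (0.09) were not called, MFN1 fell by 0.67 and OPA1 was lower by 0.62.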
